A study of Rattus norvegicus with 16 samples.

Results

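The genes described here encode the machinery that fills, docks, fuses and retrieves synaptic vesicles. They form a list of 32, made by naming genes of known function: proteins of the vesicle, synaptotagmins, SNARE proteins with their complexins, the factors that take SNARE complexes apart, scaffolds of the active zone, and proteins of vesicle endocytosis. A member was measured through the array probes whose transcript accession maps to it, and 31 of the 32 had such a probe. Syp, which encodes the vesicle protein synaptophysin, had none and was not analysed here. The 31 are among 20471 genes tested.

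When an action potential reaches a nerve terminal, calcium enters through channels held at the active zone and binds synaptotagmin on docked vesicles. Synaptotagmin then triggers the SNARE proteins, one kind on the vesicle (VAMP) and others on the plasma membrane (syntaxin and SNAP-25), to zip together and fuse the membranes. NSF and its adaptors pull the spent SNARE complexes apart, and dynamin, endophilin, synaptojanin and amphiphysin recover the membrane by endocytosis. These proteins act in axon terminals, but their mRNAs lie mostly in the cell bodies of neurons, so a piece of tissue reports the neurons whose cell bodies it holds.

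Rats aged 8 weeks were sampled in 3 groups, and total RNA labelled as brain tissue was hybridised to 1 single-colour array per sample. The 5 normal controls had no occlusion by their titles, though their source label names post-MCAo tissue like the others, 5 samples had MCAo (blocking of the middle cerebral artery to model a stroke) with saline, and 6 had MCAo with IV-hUMSC, read here as human umbilical mesenchymal stem cells given intravenously. The labels give 72 hours after MCAo as the sampling time and the infusion as 1000000, without a unit, read here as cells. They give no strain, sex, hemisphere, brain region, time of infusion or sham operation, and name a blood RNA kit with globin removal, so surgery, saline and occlusion cannot be told apart. Nothing in the labels states that replicates are separate animals, so the p-values measure the spread between these samples.

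All 31 genes were well above background on all 16 arrays, and no probe was saturated. Between 72.3% and 77.6% of all probes were well above background on an array. Precision is limited by how many arrays there are. A list of 17 measured neuronal genes outside the vesicle cycle (among them Tubb3, Map2 and the neurofilaments) had a mean log2 level of 2.20 to 3.06 over the 16 arrays. The mean of 5 measured neutrophil genes ran from -5.15 to -2.21 and that of 5 measured red cell genes from 0.32 to 4.28. Probes differ in brightness, so these ranges do not order the lists or tell brain from blood. Saline replicates 1 and 5 lay nearer the controls than the other occluded arrays did in the mean level of the release genes. Counts of release genes called in comparisons with the saline group are therefore also given without them. Counts for the other gene lists, and counts of genes without overlap, are given over all arrays only. The arrays lay on 2 slides: slide 1 held controls 1 to 3, saline 1 to 3 and hUMSC 5 and 6, and slide 2 held controls 4 and 5, saline 4 and 5 and hUMSC 7 to 10.

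Levels below are log2 processed signals relative to the array's 75th percentile, which is set at 0. They order the arrays for a gene and do not order genes, since probes differ in brightness. A change is a difference between group means on this log2 scale with its standard error (SE) from a limma model over all 16 arrays. It is called where limma's two-sided moderated test, adjusted by Benjamini-Hochberg over the 20471 genes, gave an adjusted p under 0.05. Fewer neurons and less RNA per neuron cannot be told apart in bulk tissue.

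The comparison of hUMSC with normal control asks how occluded, cell-treated brain differed from intact brain. Here 30 of the 31 release genes fell and 1 rose. The falls ran from 0.44 ± 0.11 for Napb, an adaptor of NSF, to 1.46 ± 0.20 for Rph3a, which encodes rabphilin, a partner of Rab3 on the vesicle. On a linear scale Rph3a fell by 63.6%, and Napb fell by 26.5%. The riser was Syngr1, a synaptogyrin of the vesicle membrane, at 0.43 ± 0.14. Of all genes tested, 37.3% were lower and 24.7% higher in this comparison (62% in either direction), which is the background for these counts. The median change was -0.68 for the release genes and -0.13 for all genes. In each of the 6 hUMSC arrays, 30 members lay below the lowest control and Syngr1 lay above the highest, so no member's groups overlapped. Over all genes, 26.9% were lower without overlap and 19.2% higher. At least 2-fold falls were found in 4 members (Rph3a, Unc13a, Cplx2 and Rims1), and in 2.4% of all genes.

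The counts of 30 and 1 were the same with slide as a block and within slide 1, with medians of -0.72 and -0.87. Within slide 2, which holds 2 controls and 4 hUMSC arrays, 24 fell and none was called higher, with 30 lower and 0 higher at an unadjusted p under 0.05 and a median of -0.60. Of all genes, 8365 were lower with slide as a block, 6124 within slide 1 and 3154 within slide 2.

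**Figure D1:**
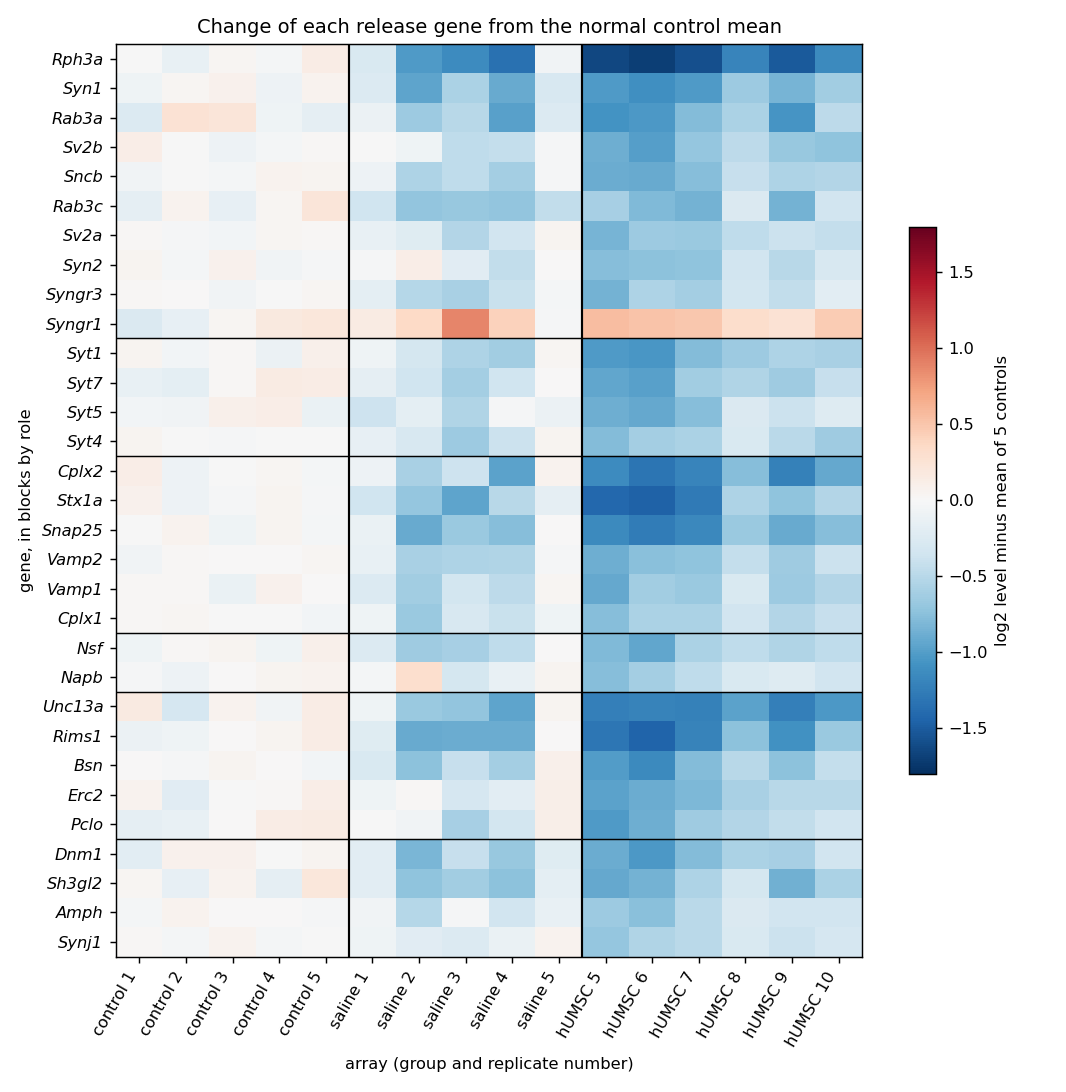
Heat map of 31 release genes (rows, in blocks by role) in 16 arrays (columns), coloured by the log2 level minus the mean of the 5 controls. The 6 hUMSC columns are blue in every row but Syngr1, and saline 1 and 5 are paler than saline 2 to 4.

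The comparison of saline with normal control asks what differed 72 hours after occlusion without the cells. In this comparison 14 of 31 members fell, against 13% of all genes lower, and limma called none higher, against 14.3% of all genes. At an unadjusted p under 0.05, 22 were lower and 1 (Syngr1) higher, against 21.8% and 19.1% of all genes. The fallers, from the largest change, were Rph3a, Syn1, Rims1, Rab3c, Rab3a, Sh3gl2, Snap25, Unc13a, Dnm1, Nsf, Vamp2, Sncb, Syngr3 and Cplx1. Their falls ran from 0.76 ± 0.21 to 0.31 ± 0.10. The median was -0.35 over the members and -0.04 over all genes, and 30 of 31 changes were negative. The groups did not overlap for 6 members, Syn1, Rab3c, Stx1a, Sh3gl2, Dnm1 and Cplx1, against 8.55% of all genes lower without overlap. None was higher without overlap, against 9.85% of all genes.

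The saline arrays were spread widely for these genes. In saline replicates 2, 3 and 4, 25, 29 and 28 of the 31 members lay below the lowest control. In saline replicate 1 the number was 20, and in saline replicate 5 it was 8, with 19 members inside the control range and 4 above it. For 21 of the 31 genes saline replicate 5 was the highest of the saline arrays. The median SD of a member was 0.08 among controls, 0.27 among saline arrays and 0.21 among hUMSC arrays.

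The number of members called lower than control in saline depended on which arrays entered. Leaving out single controls, replicates 1 to 5, gave 7, 5, 4, 6 and 4, while 1543 to 1767 of all genes were lower. Leaving out single saline arrays gave 16, 3, 4, 3 and 22 in the same order, and 3303, 1154, 1259, 1283 and 3990 of all genes. With saline replicates 1 and 5 both removed, which was decided once their levels were known, 23 members and 4992 of all genes were lower. Without both, Syngr1 was also called higher and the median was -0.50. With slide as a block 18 fell, within slide 1 the number was 4, and within slide 2 (2 arrays against 2) limma called 0, with 3 at an unadjusted p under 0.05. Of all 20471 genes, 3209 were lower with slide as a block, 973 within slide 1 and 1 within slide 2. Within slide 2, 2455 of them were at an unadjusted p under 0.05 in either direction. The medians within the slides were -0.37 and -0.26. With each array scaled to its median, 23 members fell, while among all genes 4888 were lower and 2377 higher in place of 2657 and 2924.

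The comparison of hUMSC with saline asks whether the infused group differed from the saline group after occlusion. In this comparison 12 of 31 members were called lower, against 7.96% of all genes, and none higher, against 4.86%. At an unadjusted p under 0.05, 24 were lower and 0 higher, against 21.9% and 15.2% of all genes. The 12 called lower were Cplx2, Rph3a, Unc13a, Erc2, Sv2b, Pclo, Syt1, Syn2, Napb, Syt7, Sv2a and Synj1. Their differences ran from -0.70 ± 0.15 to -0.33 ± 0.08. The median was -0.33 over the members and -0.07 over all genes. The 2 groups did not overlap for 4 of the members (Unc13a, Erc2, Sv2b and Synj1), and 2.95% of all genes were lower without overlap. No member was higher without overlap, against 1.24% of all genes.

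Some marker lists moved in the same comparison, in which 7.96% of all genes were called lower and 4.86% higher. Of 17 other neuronal genes 8 were called lower (median -0.36), as were 3 of 10 striatal projection neuron markers (-0.57), 1 of 9 cortical and hippocampal excitatory markers (-0.28) and 3 of 11 interneuron markers (-0.32). Called higher were 4 of 5 neutrophil markers (median 1.03), 5 of 9 endothelial markers (0.42), 3 of 15 microglia and macrophage markers (0.79) and 2 of 10 reactive astrocyte markers (1.05). Called in neither direction were all 10 oligodendrocyte markers (median -0.03), 5 red cell markers (-0.79) and 7 choroid plexus markers (0.25). The part of the cell types in the lower levels of the release genes was not tested.

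The 12 calls among the members likewise rest on a spread that is pooled with the controls, whose arrays varied least. With only the saline and hUMSC arrays in the limma model the count was 0, with 16 members at an unadjusted p under 0.05. Dropping saline replicates 1 and 5 also gave 0, with 9 at an unadjusted p under 0.05, and the median was -0.18, with 30 members negative over all arrays and 28 without those 2. Of all genes, 33 were lower in the first of these fits and 18 in the second. The member count was 2 without either saline replicate 1 or 5 alone, 3, 4 and 4 without hUMSC replicates 5, 6 and 7, and 10 to 18 without any other single array of these groups. In the same fits all genes gave 157 and 312, then 480, 553 and 579, then 1269 to 2488 lower. With slide as a block 23 members were called lower. Within slide 1 the count was 7 with a median of -0.54, and within slide 2 it was 0, with 8 at an unadjusted p under 0.05 and a median of -0.33. Of all genes, 3723 were lower with slide as a block, 712 within slide 1 and 0 within slide 2. With median scaling 10 members were called lower, and the split over all genes was 1157 lower and 1193 higher in place of 1630 and 994. Both comparisons with control share the same 5 arrays, so the change in saline and the change in hUMSC are given below side by side.

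**Figure D2:**
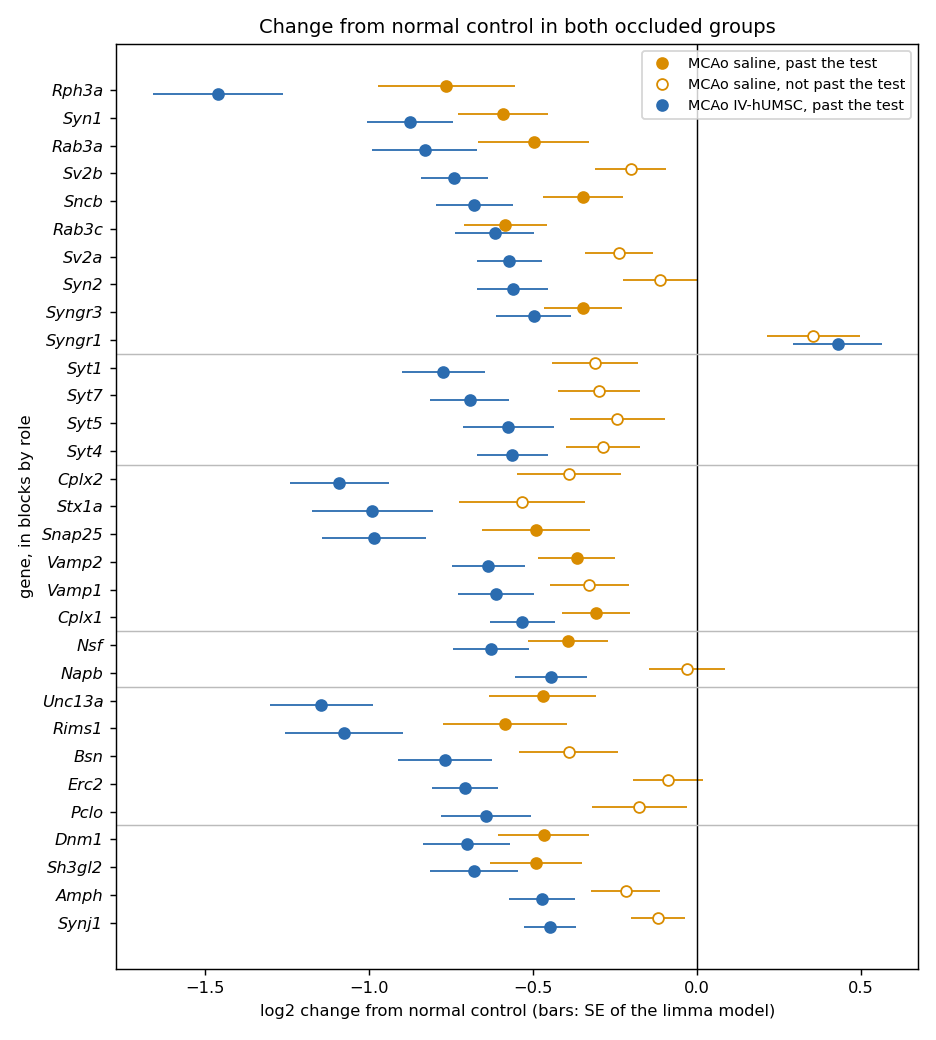
Log2 change from normal control (horizontal axis) of 31 release genes (rows, in blocks by role) in the saline and hUMSC groups, with SE bars. Filled points passed the test; all 31 hUMSC points are filled, and 14 of the saline points are.

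Among the proteins on the vesicle, 9 of 10 measured members fell in hUMSC and 6 fell in saline, and 4 were called lower in hUMSC than in saline. Syn1 encodes synapsin, which ties vesicles to the actin skeleton and to each other. Its controls read 0.95, 1.06, 1.1, 0.93 and 1.08, its saline arrays 0.77, 0.08, 0.46, 0.12 and 0.74, and its hUMSC arrays ran from -0.08 to 0.40 with a median of 0.10. All occluded arrays lay below all controls, and the saline and hUMSC arrays overlapped. Syn1 fell by 0.59 ± 0.14 (adjusted p = 0.00785) in saline and by 0.87 ± 0.13 (adjusted p = 7.31e-05) in hUMSC. The related Syn2 had a change of -0.11 ± 0.11 in saline (adjusted p = 0.494) and fell by 0.56 ± 0.11 in hUMSC.

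Syn1 also holds, before its start, a match to the cyclic AMP response element TGACGTCA, the site bound by the factor CREB in genes regulated by neuronal activity. Promoter sequence was at hand for 27 of the 32 listed genes, from RefSeq on build GRCr8, and the 250 bases before the annotated start were searched on both strands. TGACGTCA, which reads the same on both strands, was found in 3 of them (11.1%), against 1.59% of 33469 promoters of the same length. The 3 genes were Syn1, Vamp1 and Sh3gl2. Every measured member with promoter sequence fell in hUMSC, so the fall does not set these 3 apart. Their sequences are shown as the members that hold this motif, with its letters in capitals. They run 5′ to 3′ on the plus strand, which is each gene's own.
Syn1, chrX:3725495-3725744: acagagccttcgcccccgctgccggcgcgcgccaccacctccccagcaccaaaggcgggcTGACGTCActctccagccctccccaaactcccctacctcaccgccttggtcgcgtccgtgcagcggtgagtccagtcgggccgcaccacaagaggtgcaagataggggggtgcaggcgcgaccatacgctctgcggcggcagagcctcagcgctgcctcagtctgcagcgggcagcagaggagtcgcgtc
Vamp1, chr4:159698644-159698893: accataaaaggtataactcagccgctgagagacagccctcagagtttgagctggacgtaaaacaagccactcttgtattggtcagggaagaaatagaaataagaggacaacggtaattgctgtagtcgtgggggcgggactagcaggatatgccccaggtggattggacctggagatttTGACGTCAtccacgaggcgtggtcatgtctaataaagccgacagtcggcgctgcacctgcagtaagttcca
Sh3gl2, chr5:104699020-104699269: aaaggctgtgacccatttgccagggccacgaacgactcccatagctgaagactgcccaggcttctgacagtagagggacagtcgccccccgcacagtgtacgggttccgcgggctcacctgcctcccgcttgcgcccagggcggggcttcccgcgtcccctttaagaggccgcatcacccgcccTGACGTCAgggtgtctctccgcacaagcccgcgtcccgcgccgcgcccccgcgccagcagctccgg
The motif begins 190, 71 and 66 bases before the start of Syn1, Vamp1 and Sh3gl2. A GC box (GGGCGG) lay in 19 of the 27 member promoters (70.4%) and in 30.5% of all, the Egr motif GCGGGGGCG in 7 (25.9%) and 2.45%, and TATAAA in 0 and 12.9%. A GC box and an Egr motif can share bases. Syp, which was not measured, is among the 19 and the 7. The 33469 promoters were not matched to the members in base content or expression, so these shares do not show a trait particular to release genes. These matches describe the letters in the window only, and binding was not measured.

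Rab3a, a small GTPase that recruits effectors to the vesicle, read 2.79, 3.28, 3.24, 2.96 and 2.87 in controls and 2.92, 2.37, 2.52, 2.05 and 2.78 in saline. Its hUMSC arrays ran from 1.95 to 2.56 with a median of 2.12. It fell by 0.50 ± 0.17 in saline and 0.83 ± 0.16 in hUMSC, and of the saline arrays replicate 1 alone lay within the control range. Rph3a, whose product rabphilin binds Rab3 and SNAP-25, read -1.17, -1.30, -1.13, -1.20 and -1.03 in controls and -1.43, -2.19, -2.29, -2.51 and -1.22 in saline, with hUMSC arrays from -2.85 to -2.32 with a median of -2.71. Saline replicate 5 lay among the controls and the other 4 saline arrays below them. Rph3a fell by 0.76 ± 0.21 (adjusted p = 0.0165) in saline and 1.46 ± 0.20 (adjusted p = 3.60e-05) in hUMSC, and it was lower in hUMSC than in saline by 0.70 ± 0.20.

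Rab3c, a close relative of Rab3a, was chosen for a full account after its values were seen. Its controls read -1.34, -1.12, -1.32, -1.15 and -0.96, its saline arrays -1.54, -1.89, -1.87, -1.89 and -1.62, and its hUMSC arrays ran from -2.03 to -1.44 with a median of -1.87. All occluded arrays lay below all controls. Of the hUMSC arrays 3 lay below every saline array, 2 above every one and 1 among them. The falls were 0.58 ± 0.13 in saline and 0.62 ± 0.12 in hUMSC, and the difference between the 2 occluded groups was -0.03 ± 0.12 (adjusted p = 0.856).

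Sv2b, a transporter-like glycoprotein of the vesicle, showed another order. The controls read -1.05, -1.18, -1.25, -1.20 and -1.15 and the saline arrays -1.18, -1.25, -1.63, -1.60 and -1.18, so 3 saline arrays lay within the control range. The hUMSC arrays ran from -2.15 to -1.64 with a median of -1.88, below all others. The change was -0.20 ± 0.11 in saline (adjusted p = 0.172), -0.74 ± 0.10 in hUMSC and -0.54 ± 0.10 between them (adjusted p = 0.013). Its relative Sv2a fell by 0.57 ± 0.10 in hUMSC and had -0.24 ± 0.10 in saline (adjusted p = 0.0952).

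Syngr1 was the 1 member that rose. Its controls read -2.27, -2.16, -1.97, -1.84 and -1.81, its saline arrays -1.87, -1.65, -1.13, -1.60 and -2.03, and its hUMSC arrays ran from -1.76 to -1.46 with a median of -1.54. All hUMSC arrays lay above all controls, and saline replicates 1 and 5 lay within the control range. The change was 0.43 ± 0.14, adjusted p = 0.0123 in hUMSC and 0.36 ± 0.14, adjusted p = 0.0721 in saline. Within slide 1 the change in hUMSC was 0.66, and within slide 2 it was 0.19 and not called (adjusted p = 0.302). Its relative Syngr3 fell by 0.35 ± 0.12 in saline and 0.50 ± 0.11 in hUMSC. Sncb, which encodes beta-synuclein, fell by 0.35 ± 0.12 in saline and 0.68 ± 0.12 in hUMSC.

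**Figure D3:**
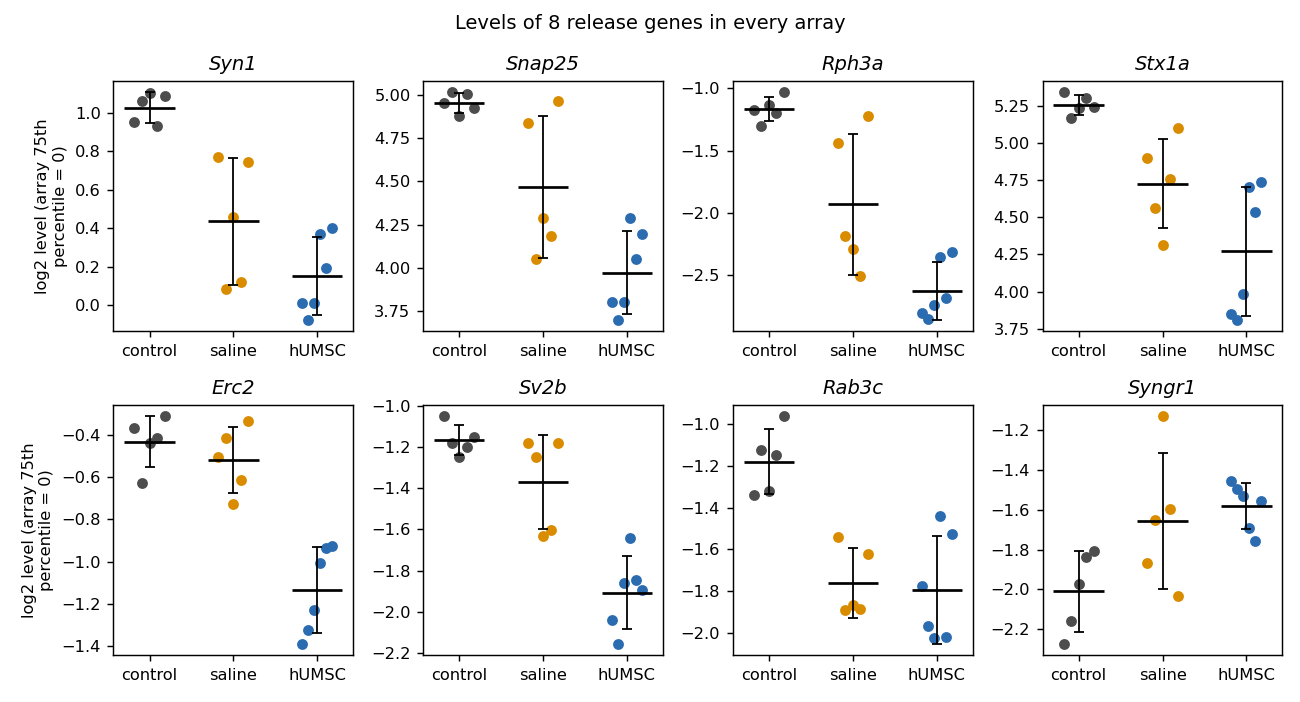
Log2 levels of 8 release genes in 5 control, 5 saline and 6 hUMSC arrays; each point is an array, the long bar the group mean and the whiskers the SD. For Erc2 and Sv2b the hUMSC arrays lie below all others, for Rab3c the hUMSC arrays reach both below and above the saline arrays, and Syngr1 is higher in hUMSC than in control.

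All 4 synaptotagmins fell in hUMSC, limma called 0 of 4 in saline (3 at an unadjusted p under 0.05), and 2 were called lower in hUMSC than in saline. Syt1, the sensor for fast release, read -0.07, -0.17, -0.10, -0.22 and -0.03 in controls and -0.20, -0.43, -0.68, -0.75 and -0.09 in saline, with hUMSC arrays from -1.17 to -0.67 with a median of -0.83. Saline replicates 1 and 5 lay within the control range, and the hUMSC arrays lay below every control. The change was -0.31 ± 0.13, adjusted p = 0.0874 in saline, -0.77 ± 0.13, adjusted p = 0.000123 in hUMSC and -0.46 ± 0.13, adjusted p = 0.0336 between the occluded groups. Syt7, a slower sensor, fell by 0.69 ± 0.12 in hUMSC, Syt5 by 0.57 ± 0.14 and Syt4 by 0.56 ± 0.11. Their changes in saline were -0.30 ± 0.13, -0.24 ± 0.14 and -0.29 ± 0.11, with adjusted p = 0.0891, 0.223 and 0.0696.

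Among the SNARE proteins and complexins all 6 members fell in hUMSC and 3 fell in saline. Snap25, the SNARE of the presynaptic plasma membrane, read 4.95, 5.02, 4.88, 5.01 and 4.93 in controls and 4.84, 4.05, 4.29, 4.19 and 4.97 in saline. Its hUMSC arrays ran from 3.70 to 4.29 with a median of 3.93, which puts each of them below the controls, while saline replicate 5 lay inside the control range. Snap25 fell by 0.49 ± 0.16 (adjusted p = 0.0399) in saline and 0.98 ± 0.16 (adjusted p = 0.000114) in hUMSC. A second Snap25 probe, designed on another transcript, changed by -1.09 ± 0.17 in hUMSC.

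Stx1a, the syntaxin that pairs with SNAP-25, read 5.34, 5.17, 5.24, 5.30 and 5.24 in controls, 4.90, 4.56, 4.32, 4.76 and 5.10 in saline and, in hUMSC replicates 5 to 10, 3.85, 3.81, 3.98, 4.71, 4.54 and 4.74. All saline arrays lay below all controls. In hUMSC, replicates 5 to 7 lay below every saline array and replicates 8 to 10 within the range of saline. The change was -0.53 ± 0.19, adjusted p = 0.0514 in saline, which did not pass, and -0.99 ± 0.18, adjusted p = 0.000341 in hUMSC.

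Vamp2, the main vesicle SNARE of the forebrain, read 3.84, 3.92, 3.91, 3.90 and 3.93 in controls and 3.77, 3.32, 3.35, 3.36 and 3.88 in saline, with hUMSC arrays from 3.02 to 3.51 with a median of 3.22. Saline replicate 5 again lay inside the control range. Vamp2 fell by 0.36 ± 0.12 and 0.64 ± 0.11 in saline and hUMSC. Its relative Vamp1 fell by 0.61 ± 0.12 in hUMSC and had -0.33 ± 0.12 in saline (adjusted p = 0.0557).

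Complexins clamp and then promote SNARE fusion. Cplx2 read 3.12, 2.91, 3.00, 3.04 and 2.98 in controls, 2.91, 2.42, 2.63, 2.05 and 3.07 in saline, and in hUMSC from 1.69 to 2.24 with a median of 1.84. Its hUMSC arrays overlapped saline replicate 4 only. It fell by 1.09 ± 0.15 (adjusted p = 3.99e-05) in hUMSC and was lower there than in saline by 0.70 ± 0.15 (adjusted p = 0.0182), the only call between the occluded groups among the SNAREs and complexins. Cplx1 fell by 0.31 ± 0.10 in saline and 0.53 ± 0.10 in hUMSC.

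Both genes of SNARE disassembly fell in hUMSC. Nsf, the ATPase that unwinds the complex, fell by 0.39 ± 0.12 in saline and 0.63 ± 0.12 in hUMSC. Its adaptor Napb read -1.05, -1.12, -1.02, -0.98 and -0.97 in controls and -1.07, -0.73, -1.35, -1.17 and -0.97 in saline, with hUMSC arrays from -1.79 to -1.26 with a median of -1.43. The saline arrays lay on both sides of the controls. Napb changed by -0.03 ± 0.11 in saline (adjusted p = 0.873), fell by 0.44 ± 0.11 (adjusted p = 0.00268) in hUMSC and was lower in hUMSC than in saline by 0.41 ± 0.11.

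At the active zone all 5 members fell in hUMSC, 2 fell in saline (Rims1 and Unc13a), and 3 were called lower in hUMSC than in saline (Unc13a, Erc2 and Pclo). Unc13a, which primes vesicles for fusion, read -1.38, -1.83, -1.47, -1.59 and -1.39 in controls and -1.62, -2.20, -2.24, -2.48 and -1.48 in saline, with hUMSC arrays from -2.77 to -2.49 with a median of -2.74. Saline replicates 1 and 5 lay inside the control range, saline 2 to 4 lay below it, and every hUMSC array lay below every saline array. Unc13a fell by 0.47 ± 0.16 (adjusted p = 0.0453) in saline and 1.14 ± 0.16 (adjusted p = 3.68e-05) in hUMSC, and was lower in hUMSC than in saline by 0.68 ± 0.16 (adjusted p = 0.0219).

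Rims1, a scaffold that links calcium channels to docked vesicles, read -2.10, -2.08, -2.0, -1.95 and -1.87 in controls and -2.22, -2.91, -2.90, -2.90 and -2.0 in saline. In hUMSC its arrays ran from -3.44 to -2.67 with a median of -3.15, and 3 saline arrays lay within that range. The falls were 0.58 ± 0.19 (adjusted p = 0.0336) in saline and 1.08 ± 0.18 (adjusted p = 0.000157) in hUMSC. Bsn (bassoon), a large scaffold, fell by 0.77 ± 0.14 in hUMSC and had -0.39 ± 0.15 in saline (adjusted p = 0.0666).

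Erc2, a scaffold that binds RIM, gave the lowest adjusted p between saline and hUMSC among the members. Its controls read -0.36, -0.63, -0.44, -0.41 and -0.31 and its saline arrays -0.50, -0.41, -0.73, -0.61 and -0.33, with hUMSC arrays from -1.39 to -0.93 with a median of -1.12. Of the saline arrays, 4 lay within the control range and replicate 3 below it, and each hUMSC array lay below all of them. The change was -0.09 ± 0.11, adjusted p = 0.569 in saline, -0.71 ± 0.10, adjusted p = 5.00e-05 in hUMSC and -0.62 ± 0.10, adjusted p = 0.00737 between them. Pclo (piccolo) read -1.15, -1.12, -0.98, -0.86 and -0.84 in controls, -0.99, -1.05, -1.58, -1.31 and -0.88 in saline, and in hUMSC from -2.0 to -1.34 with a median of -1.57. Saline replicates 1, 2 and 5 lay within the control range. Pclo fell by 0.64 ± 0.14 in hUMSC, with -0.17 ± 0.14 in saline (adjusted p = 0.386) and a difference of -0.47 ± 0.14, adjusted p = 0.0418 between the occluded groups.

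The 4 genes of vesicle endocytosis fell in hUMSC, and 2 of them, Dnm1 and Sh3gl2, fell in saline. Dnm1, the neuronal dynamin that cuts vesicles from the membrane, fell by 0.47 ± 0.14 in saline and 0.70 ± 0.13 in hUMSC. Sh3gl2 (endophilin A1), which bends the membrane and recruits synaptojanin, fell by 0.49 ± 0.14 and 0.68 ± 0.13. Synj1, the lipid phosphatase that strips the clathrin coat, read 3.76, 3.71, 3.81, 3.71 and 3.74 in controls and 3.66, 3.54, 3.50, 3.63 and 3.81 in saline, with hUMSC arrays from 3.05 to 3.48 with a median of 3.31. Each hUMSC array lay below each saline array, and saline replicates 1 to 4 lay below the controls. The change was -0.12 ± 0.08, adjusted p = 0.29 in saline, -0.45 ± 0.08, adjusted p = 0.000214 in hUMSC and -0.33 ± 0.08, adjusted p = 0.0238 between them. Amph (amphiphysin) fell by 0.47 ± 0.10 in hUMSC and had -0.22 ± 0.10 in saline (adjusted p = 0.133).

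Members with more than 1 probe were Bsn, Cplx1, Erc2, Pclo, Snap25, Synj1, Syt4 and Vamp1. Both probes of each changed downwards in hUMSC, with the widest gap for Erc2, at -0.71 ± 0.10 for the brighter probe and -0.50 ± 0.14 for the other.

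A second list held 56 further genes of vesicles and release, of which 51 were measured. In hUMSC against control 45 fell and 1 rose, with a median of -0.62, beside 30 and 1 of the 31 members and their median of -0.68. In saline against control 18 fell and 1 rose (median -0.30), and in hUMSC against saline 13 were called lower and 0 higher (median -0.30). The 13 calls come from the model over all arrays and were not counted in other fits. With only the saline and hUMSC arrays in the model, 33 of all genes were called lower. The largest falls in hUMSC were of Lin7b, an adaptor of presynaptic scaffolds (-1.55 ± 0.28), Syt12, a synaptotagmin (-1.16 ± 0.18), and Doc2b, a calcium sensor of spontaneous release (-1.05 ± 0.22). In saline they were of Lin7b (-0.95 ± 0.29), Syt12 (-0.74 ± 0.19) and Rims4 (-0.59 ± 0.17). Lower in hUMSC than in saline by the most were Stxbp5l, a syntaxin-binding tomosyn (-0.64 ± 0.14), the cell adhesion gene Nrxn3 (-0.61 ± 0.15) and the dynamin Dnm3 (-0.58 ± 0.11).

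The vesicular transporters mark neurons by transmitter. Slc17a7, the glutamate loader of cortical and hippocampal neurons, fell by 0.45 ± 0.13 in saline and 0.62 ± 0.12 in hUMSC, and Slc32a1, the GABA loader, by 0.48 ± 0.13 and 0.73 ± 0.12. Both were named after their values were seen. Risers were Rims3, a short RIM protein, in hUMSC (0.38 ± 0.10, adjusted p = 0.0046), and Ppfia1, the liprin found in most tissues, in saline (0.23 ± 0.07).

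Many release genes have relatives that serve membrane traffic outside the synapse, among them genes of granule-releasing blood cells. Of 22 such relatives 21 were measured: in hUMSC against control 10 rose and 5 fell, with a median of 0.16, and in saline against control 7 rose and 1 fell, with a median of 0.07. In hUMSC against saline 6 were called higher and 0 lower, with a median of 0.15. Of all genes, 24.7% rose and 37.3% fell in hUMSC, and 14.3% rose and 13% fell in saline. Between the occluded groups 4.86% were higher and 7.96% lower. The 6 calls between those groups come from the model over all arrays and were not counted in other fits. With only the saline and hUMSC arrays in the model, 8 of all genes were called higher. The largest rises in hUMSC were of Stxbp2, a partner of syntaxins in granule-releasing blood cells (2.02 ± 0.27, adjusted p = 3.01e-05), Unc13d, the priming factor of cytotoxic granules (1.43 ± 0.14, adjusted p = 3.29e-06), and Vamp8, a SNARE of granules and late endosomes (1.39 ± 0.17, adjusted p = 1.61e-05). The same 3 were the largest called differences between hUMSC and saline, at 0.95 ± 0.27, 0.51 ± 0.14 and 0.67 ± 0.17. In saline the largest rises were 1.07 ± 0.28 for Stxbp2, 0.92 ± 0.14 for Unc13d and 0.76 ± 0.17 for Rab27a, a GTPase of granule docking. The fallers in hUMSC were Vamp4 (-0.43 ± 0.10), Synj2 (-0.41 ± 0.10) and Stx7 (-0.23 ± 0.07), with Vamp7 and Syt11, and in saline Stx7 (-0.22 ± 0.07).

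Set beside each other by family, members and relatives took different values in hUMSC. Examples chosen after their values were seen follow. Snap25 changed by -0.98 ± 0.16 and Snap23 by 0.70 ± 0.09, Unc13a by -1.14 ± 0.16 and Unc13d by 1.43 ± 0.14, and Dnm1 by -0.70 ± 0.13 and Dnm2 by 0.40 ± 0.08. Syngr2 rose by 0.95 ± 0.14, above Syngr1, and the closest pair was Synj1 at -0.45 ± 0.08 and Synj2 at -0.41 ± 0.10. In 10 of 10 families, which together hold 16 members and 17 relatives, each relative's change lay above that of each member. The families were set out after the values were seen, and the differences within them were not tested.

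**Figure D4:**
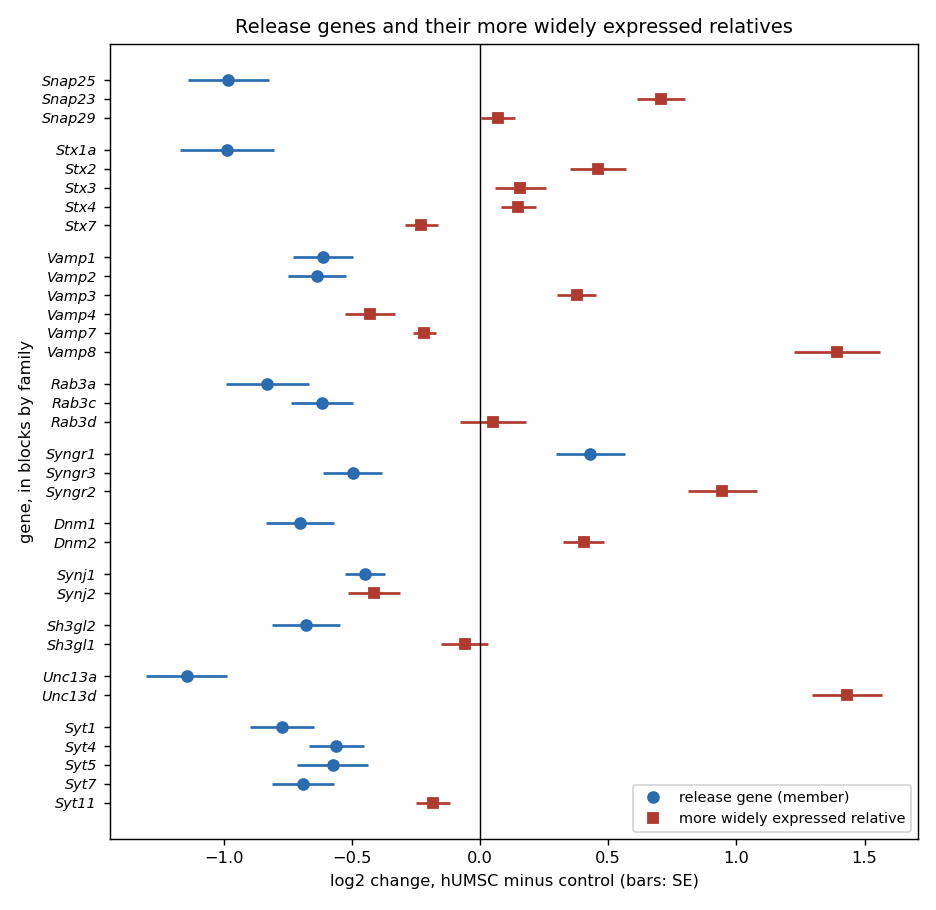
Log2 change in hUMSC against normal control (horizontal axis, bars SE) for 16 release genes (circles) and 17 relatives (squares) in 10 families. The relatives, labelled more widely expressed, include the granule genes Unc13d and Vamp8. In each family the squares lie to the right of the circles, with the smallest gap between Synj1 and Synj2.

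Levels of cell type markers moved with the same arrays. Beside the counts that follow, 13% of all genes fell and 14.3% rose in saline, and 37.3% fell and 24.7% rose in hUMSC. The mean level of the 31 release genes lay between 1.45 and 1.53 among controls. It was 1.34, 1.03, 1.01, 0.97 and 1.45 in saline replicates 1 to 5, and 0.58 to 1.02 in hUMSC. Neuronal genes outside the vesicle cycle ran from 3.02 to 3.06, 2.51 to 3.03 and 2.20 to 2.58 in the 3 groups. Of these 17 genes 6 fell in saline and 15 in hUMSC, with medians of -0.24 and -0.63. Striatal projection neuron markers fell in 9 of 10 and 10 of 10, with medians of -1.14 and -1.78, and cortical and hippocampal excitatory markers in 4 of 9 and 8 of 9, with -0.41 and -0.62. Interneuron markers fell in 4 of 11 and 9 of 11, with -0.28 and -0.63. A difference between any of these lists and the release genes was not tested.

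Markers of microglia and macrophages rose in 14 of 15 in both occluded groups, with medians of 1.99 in saline and 2.62 in hUMSC. Summed over the list, the log2 level ran from 4.62 to 4.93 among controls, from 5.75 to 7.92 among saline arrays and from 7.61 to 8.32 among hUMSC arrays. Saline replicates 1 and 5 had the 2 lowest mean levels of these markers among occluded arrays, 1.66 and 0.79, and the 2 highest means of the release genes. Reactive astrocyte markers rose in 8 of 10 and 10 of 10, with medians of 2.45 and 3.50. Summed, their level ran from 2.38 to 2.79 among controls, from 3.80 to 6.54 among saline arrays and from 5.57 to 6.93 among hUMSC arrays. The part of these other cells in the fall of the release genes was not tested.

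**Figure D5:**
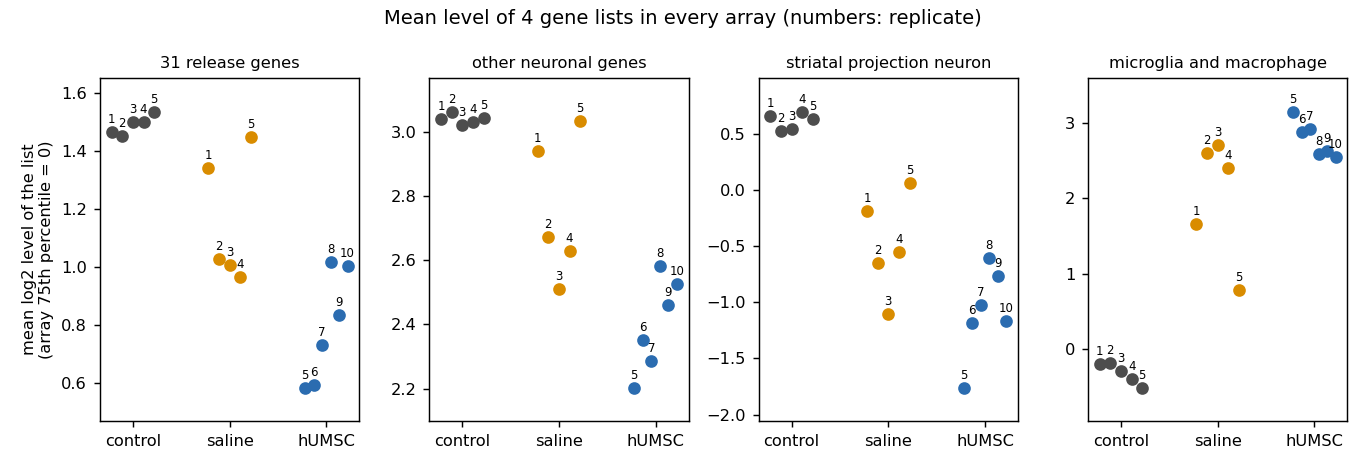
Mean log2 level in each array of the 31 release genes, 17 other neuronal genes, 10 striatal projection neuron markers and 15 microglia and macrophage markers; numbers are replicates. Saline 1 and 5 are the highest occluded arrays in the first 3 lists and the lowest occluded arrays for microglia. Both lie below all controls for the release genes and the striatal markers, as does saline 1 for the other neuronal genes.

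Further lists were of other cell types and of scaling genes. Oligodendrocyte markers fell in 5 of 10 in saline and 7 of 10 in hUMSC, with medians of -0.38 and -0.39. Endothelial markers fell in 2 of 9 in saline and rose in 5 of 9 in hUMSC, with 0.12 and 0.35. For neutrophil markers 1 of 5 rose and 1 fell in saline and 3 rose in hUMSC, with medians of 1.46 and 2.81. Their mean level was -5.15 to -3.96 among controls, -4.47 to -3.48 among saline arrays and -3.60 to -2.21 among hUMSC arrays. Red cell markers had medians of 0.07 in saline and -0.75 in hUMSC, and choroid plexus markers -0.23 and 0.03, with 1 of 7 of the latter higher in hUMSC. Of 12 genes often used to scale expression, 3 rose and 2 fell in saline and 4 rose and 6 fell in hUMSC, with medians of 0.00 and -0.07.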

How the data were processed

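Arrays were Agilent single-colour arrays of 62976 spots, scanned and read, per the file headers, with Agilent Feature Extraction 11.0.1.1 (the submitters' processing notes write 100.0.1.1). The deposited processed signal is an intensity that is background-subtracted and spatially detrended, with no dye normalisation, per the file headers. The median spot signal and local background are deposited intensities too, and spots carry marks for outliers, saturation and background, per the file headers. In the value table each entry equals the mean processed intensity per probe.

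Spots marked as outliers were dropped, log2 signals of a probe's spots were averaged, and each array was set to 0 at its 75th percentile over non-control probes. Of 30367 probes, 9 had no usable spot on some array and were left out, 18351 matched a symbol by accession (RefSeq, GRCr8) and 12007 did not; the array design is annotated on rn4, and no gene coordinates were taken from it. A probe was tested if most of its spots, or as many as not, were well above background on 5 or more arrays, and a gene was represented by its brightest such probe; genes without a symbol are counted by accession.

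Group means were fitted in limma 3.58.1 (R 4.3.3) over 16 arrays with 13 residual degrees of freedom. The fit was tested on simulated data: with 200 of 20471 genes changed by 1 (log2) in the hUMSC group, 85.5% were called against control. The simulation gave a gene the same spread in every group, unlike the data, so it cannot show how unequal spread affects the calls. Replicate numbers shared by control and saline were not treated as pairs, since the labels do not say what they mark. Same-numbered deviations correlated at -0.051, 0.177, 0.006, 0.115 and 0.172. Arrays of different numbers were not compared, so these values cannot decide whether the numbers pair arrays. Genes described in full were 6 standard synaptic genes, the members with the 6 largest and 3 smallest changes in hUMSC against control, the 6 largest called between the occluded groups, and any riser; of the other vesicle genes and relatives, up to 3 called per direction and comparison. The members, lists and this rule were chosen with earlier results of these data known. Alternatives covered scaling, background, filter, probe choice, value table, weights, samples, slide and left-out arrays. Figures were drawn with matplotlib 3.10.9.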

Additional observations from a re-analysis of the deposited data

Results flagged for a closer look

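Among 96 sets of levels checked (31 genes and their mean, in each of 3 groups), 1 held an array far from the others. Syt4 in control replicate 1 was 2.55, against 2.49 in each of the other 4 controls, a gap that was 0.889 of the group's whole range. Chance marks about 1 in 20 such sets. The gap is small beside the change of Syt4 in hUMSC, -0.56 ± 0.11.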

How the results depend on the processing

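In hUMSC against control, 30 members were lower under all 23 alternatives except within slide 2 (24), and the riser was lost there only, leaving 0. The median change of the members kept its sign in all 3 comparisons under all alternatives. In saline against control the count of 14 lower became 23 with median scaling, 8 with no filter on dim probes, 24 with array weights, 4 within slide 1, 0 within slide 2, 23 without saline replicates 1 and 5 (chosen after seeing the data), and 3 to 22 without single arrays. A riser, 1 where there had been 0, appeared with array weights, without saline replicates 1 and 5, and without either of them alone. With the replicate number as a block, over control and saline arrays, 5 were lower. Of all genes, 2657 were lower in saline than in control over all arrays. That number was 4888 with median scaling, 5133 with array weights and 1058 with the replicate number as a block. It was 973 within slide 1 and 1 within slide 2. hUMSC shares 1 replicate number with the other groups, so no paired analysis was possible because fewer than 2 numbers are shared. In hUMSC against saline the count of 12 became 1 with array weights, 0 with only these 2 groups, 23 with slide as a block, 7 within slide 1, 0 within slide 2, 0 without saline replicates 1 and 5, and 2 to 18 without single arrays. Over all genes, those lower in this comparison numbered 1630, but 33 with only these 2 groups and 3723 with slide as a block. They numbered 102 with array weights, 712 within slide 1, 0 within slide 2 and 18 without saline replicates 1 and 5.

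Signs turned for 5 values, none of them called. Between hUMSC and saline, Syngr1 (0.07 over all arrays) was -0.0558 with array weights and -0.1233 without saline replicates 1 and 5, and without single arrays it ran from -0.0212 to 0.2049. In the same comparison Rab3c (-0.03) was 5e-04 within slide 2, 0.0882 without saline replicates 1 and 5, and -0.1025 to 0.0232 without single arrays. Without saline replicates 1 and 5, Sh3gl2 was 0.0139 in place of -0.19 ± 0.13, and Syngr3 0.0062 in place of -0.15 ± 0.11. Between saline and control, Napb (-0.03) was 0.0125 within slide 1 and -0.1116 to 0.0435 without single arrays. The cause of these shifts was not tested. All members were marked well above background on every array, though some were dim, such as Syt7 with a mean level of -3.65. That mark does not show that background leaves the size of a change unaltered. With another background correction 13 members were lower in saline against control. It gave 11 lower in hUMSC against saline and 30 lower in hUMSC against control.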

Other observations

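Within the hUMSC group the 31 release genes were not spread evenly over the arrays: 15 were lowest in hUMSC replicate 6, 13 in replicate 5, 2 in replicate 9 and 1 in replicate 7. Replicates 5 and 6 are the 2 hUMSC arrays of slide 1. Their mean levels of the release genes were 0.58 and 0.59, against 0.73, 1.02, 0.84 and 1.00 in replicates 7 to 10, and among controls of slides 1 and 2 the means were 1.45 to 1.5 and 1.5 to 1.53.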
